A study of Mus musculus with 20 samples.

Results

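Histone genes were chosen by name on a 2-colour Agilent array that profiled XY mouse gonads of 4 genotypes. The rule took every gene probe whose gene name starts with Hist1h, Hist2h, Hist3h, Hist4h, H1f, H2af or H3f, and kept the probe with the brightest mean Cy5 signal for each gene. It found 67 probes of 47 genes among the 27962 gene names on the array. Of these, 34 belong to the histone clusters (names starting with Hist) and 13 are variant histones that lie elsewhere (H1f, H2af and H3f). All 47 matched a RefSeq gene, and 44 of them carry another symbol today, so both names are given for the genes the results turn on.

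The samples were single pairs of gonads, 1 pair per array, from embryos at embryonic day 11.5 with 17 to 21 tail somites, separated from the mesonephroi. There were 5 arrays each of (B6x129S1)F1, (129S1xB6)F1, C57BL/6J and 129S1/SvImJ. The F1 groups are the reciprocal crosses of these inbred strains, so every F1 gonad carries 1 genome of each strain. Each array holds another embryo, and the labels do not say which embryos were littermates, so p-values measure the spread between these embryos. The sample names begin with 10 different letters, whose meaning the labels do not give, and 4 of the 5 C57BL/6J arrays share a letter. Gonad RNA was labelled with Cy5 on all 20 arrays, and the Cy3 channel held 1 reference pool common to all. The pool was made from whole embryos (4 XY, 2 XX) together with gonads (4 XY pairs, 3 XX pairs) of the strain labelled Sox9-ECFP(C57BL/6J) x CD-1. Values are log2 ratios of gonad over pool unless stated, and differences between groups are differences of these log2 ratios.

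Histones package DNA: H2A, H2B, H3 and H4 form the nucleosome core, and H1 binds the linker between nucleosomes. The clustered genes are transcribed in S phase, when new chromatin is needed, and their mRNAs end in a conserved stem-loop in place of a poly(A) tail. Variant histones are mostly made from polyadenylated mRNAs throughout the cell cycle and replace the clustered forms at particular places, as H3.3 does in transcribed chromatin and macroH2A on the inactive X chromosome. The linear amplification kit named in the labels is primed with oligo-dT, and 200 to 450 ng of total RNA went into each reaction. At this stage the XY gonad holds proliferating somatic precursors and germ cells.

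Members of a histone family are close in sequence, and their brightest probes overlapped one another. A run of at least 25 identical bases was shared with the brightest probe of another member in 11 of the 47 genes, in 10 pairs of genes. The sequences below were read from the scanner files and are 60 bases long, and capitals mark the longest run held by all 3 probes of a family. The H2A probes share a run of 29 bases, although H2afj is a variant gene on chromosome 6 and the others lie in the chromosome 13 cluster.
Hist1h2aa: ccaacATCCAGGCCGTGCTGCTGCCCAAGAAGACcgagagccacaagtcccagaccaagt
Hist1h2af: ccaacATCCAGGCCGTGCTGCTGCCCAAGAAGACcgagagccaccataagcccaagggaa
H2afj: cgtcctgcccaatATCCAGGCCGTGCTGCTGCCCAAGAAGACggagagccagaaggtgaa

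The H2B probes shown next share a run of 26 bases, and all 3 genes passed the strain test described below. Hist1h2bk and Hist1h2bm lie on chromosome 13 and Hist3h2bb on chromosome 11. Between the probes of Hist1h2bk and Hist1h2bm the shared run is 52 bases.
Hist1h2bk: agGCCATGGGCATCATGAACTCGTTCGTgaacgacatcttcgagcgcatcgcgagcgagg
Hist1h2bm: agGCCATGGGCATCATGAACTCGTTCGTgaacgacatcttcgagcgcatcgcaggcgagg
Hist3h2bb: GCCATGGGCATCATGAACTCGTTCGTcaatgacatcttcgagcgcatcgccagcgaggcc

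The H4 probes share a run of 29 bases across clusters on chromosomes 13 and 3. They are shown because the genes they name moved together from array to array.
Hist1h4d: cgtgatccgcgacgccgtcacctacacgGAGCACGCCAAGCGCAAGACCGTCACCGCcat
Hist1h4f: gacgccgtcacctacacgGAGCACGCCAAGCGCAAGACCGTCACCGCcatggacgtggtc
Hist2h4: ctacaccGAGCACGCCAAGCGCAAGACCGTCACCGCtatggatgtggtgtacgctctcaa

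Signals of genes whose probes share such runs cannot be assigned to 1 gene, and their values are given as readings of those probes. No run of 25 bases was shared with another member by the probes of Hist1h4i, Hist1h2bc, Hist2h2be, Hist1h2ba or Hist3h2a. Probes were compared with other probes only and not with transcripts, so whether these probes read 1 gene each was not tested. The 16-base histone stem-loop was found whole in 1 probe, that of Hist1h3a. A part of at least 10 bases stood at the edge of the probes of Hist1h2ab and Hist1h2ae, and none of the other gene probes, of 41174 on the array, held it.

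Of the 47 members, 45 passed the detection filter: in some group, no fewer than 4 arrays had to show the probe well above background in Cy5. All 13 variant histones passed, and so did 32 of the 34 clustered genes. Hist1h2ac was well above background on 6 of the 20 arrays and Hist1h2be on 0, and neither was tested. The fit covered all 24058 gene names that passed, and a gene was called at a Benjamini-Hochberg adjusted p under 0.05 in limma. Over all arrays, 78.4% to 88.3% of gene spots were well above background and no gene spot was saturated in Cy5. Markers of the gonadal soma lay at a median log2 ratio of 2.57 over the pool (7 genes) and germ cell markers at 1.34 (12 genes), against a median of -1.91 for neural markers (5 genes tested).

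Between the strains, 8 of the 45 histone genes tested were called, against 5.56% of all genes tested. All 8 are clustered genes, 7 higher and 1 lower in C57BL/6J. Of the 7 H2B genes tested, 6 were called higher, against 3.25% of all genes called in that direction. The other calls were Hist1h4i, an H4 gene, which was higher, and Hist3h2a, an H2A gene, which was lower, against 2.31% of all genes called lower. None of the 13 variant histones passed, and none had an unadjusted p under 0.05 in limma. Over all genes, 3564 of the 24058 tested had an unadjusted p under 0.05. The arrays of the strains did not overlap in any of the 8 called genes, nor in 5.25% of all genes tested. The plot of the strain differences shows how the H2B genes stand apart from the other families on this scale.

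**Figure D1:**
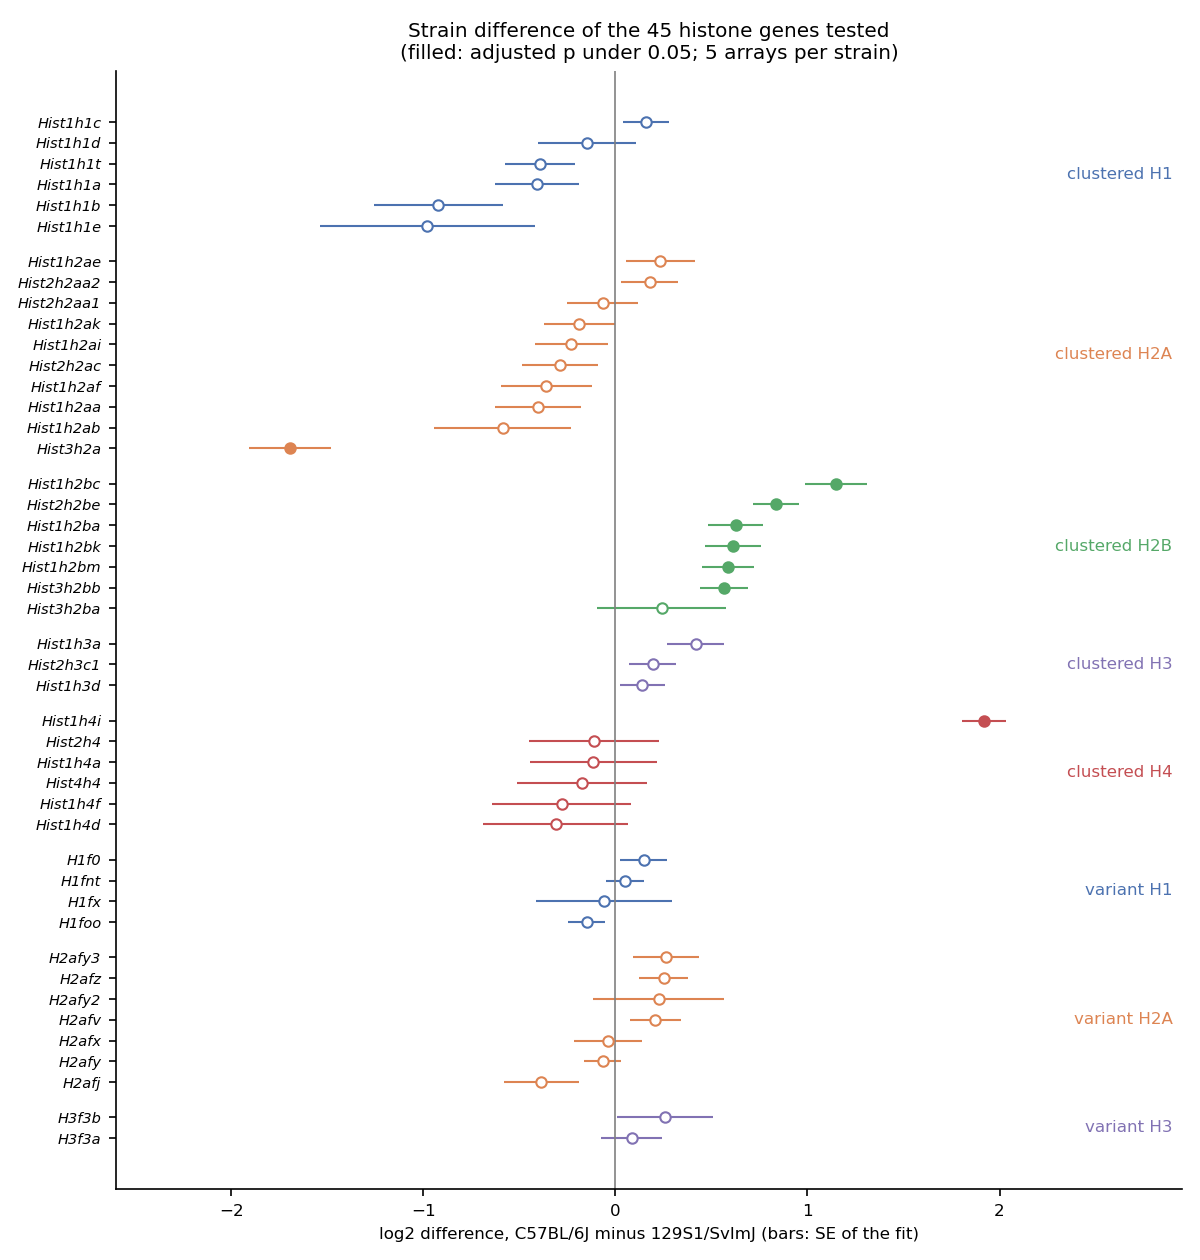
Strain difference of the 45 histone genes tested, C57BL/6J minus 129S1/SvImJ, in log2 units on the x axis, with genes grouped by class and family from top to bottom. Points are the fitted differences over 5 arrays per strain, bars are SEs, and filled points passed at an adjusted p under 0.05: 6 of 7 H2B genes lie filled to the right of 0, Hist1h4i stands at 1.92 and Hist3h2a at -1.69.

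Hist1h4i, now H4c9, encodes the core histone H4 and lies in the chromosome 13 cluster. Its log2 ratios were -0.90, -0.83, -0.81, -1.05 and -0.66 in (B6x129S1)F1 gonads and -1.21, -1.04, -0.96, -1.01 and -0.80 in (129S1xB6)F1 gonads. They were -0.06, -0.01, -0.11, -0.05 and -0.01 in C57BL/6J gonads, against -1.70, -1.92, -1.70, -2.19 and -2.31 in 129S1/SvImJ gonads. The F1 arrays filled the gap between the strains, with no overlap with either. The strain difference was 1.92 ± 0.11 (SE), or 3.78-fold higher in C57BL/6J, at an adjusted p of 4.6e-10. The F1 mean of -0.93 lay 54.1% of the way from 129S1/SvImJ to C57BL/6J.

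Hist1h2bc, now H2bc4, encodes H2B and also lies on chromosome 13. Its log2 ratios were 1.53, 1.31, 1.01, 1.28 and 0.84 in (B6x129S1)F1 gonads and 1.17, 0.67, 1.45, 1.52 and 1.49 in (129S1xB6)F1 gonads. They were 1.40, 1.31, 1.46, 1.67 and 1.89 in C57BL/6J gonads, against 0.26, 0.52, 0.47, 0.38 and 0.34 in 129S1/SvImJ gonads. Every 129S1/SvImJ array was below every other array, while F1 and C57BL/6J arrays overlapped. The strain difference was 1.15 ± 0.16 (SE), 2.22-fold, with an adjusted p of 7.0e-05. A second, dimmer probe of the gene also separated the strains, with means of 0.30 in C57BL/6J and -0.12 in 129S1/SvImJ and a difference of 0.42.

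Hist2h2be, now H2bc21, is an H2B gene of the chromosome 3 cluster. Its log2 ratios were -0.70, -0.74, -0.89, -0.81 and -0.45 in (B6x129S1)F1 gonads and -0.77, -0.49, -0.90, -0.84 and -1.11 in (129S1xB6)F1 gonads. They were -0.15, 0.07, 0.05, -0.36 and -0.13 in C57BL/6J gonads, against -0.85, -0.96, -0.86, -1.19 and -0.84 in 129S1/SvImJ gonads. Here C57BL/6J stood alone on the high side, and the F1 arrays overlapped those of 129S1/SvImJ. The strain difference was 0.84 ± 0.12 (SE), 1.79-fold, at an adjusted p of 8.4e-05.

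Hist3h2a, now H2aw, is an H2A gene of the chromosome 11 cluster and the only called member that was lower in C57BL/6J. Its log2 ratios were 0.66, 0.27, 0.59, -0.02 and 0.47 in (B6x129S1)F1 gonads and 0.57, 0.12, -0.11, -0.18 and 0.02 in (129S1xB6)F1 gonads. They were -0.45, -0.97, -0.63, -0.82 and -1.28 in C57BL/6J gonads, against 1.42, 0.58, 0.76, 1.33 and 0.23 in 129S1/SvImJ gonads. The C57BL/6J arrays were all below 0 and below every F1 array, and the F1 arrays overlapped those of 129S1/SvImJ. The strain difference was -1.69 ± 0.21 (SE), 3.24-fold, at an adjusted p of 2.3e-05. The probe that gave these values is shown whole, because the other probes of the gene read differently.
Hist3h2a: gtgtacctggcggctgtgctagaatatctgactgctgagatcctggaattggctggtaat

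The other Hist3h2a probes had strain differences of -0.64 and 0.06, and the arrays of the strains overlapped in both. These probes were not tested on their own; with the mean of the 3 probes the difference was -0.76 at an adjusted p of 0.012.

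Hist1h2ba, now H2bc1, encodes the H2B made in testis germ cells. Its log2 ratios were -0.26, -0.14, -0.47, -0.89 and -0.78 in C57BL/6J gonads, against -0.94, -1.23, -0.93, -1.12 and -1.46 in 129S1/SvImJ gonads. The F1 means were -0.92 ± 0.15 in (B6x129S1)F1 and -1.02 ± 0.19 in (129S1xB6)F1 (SD, n = 5 each). The strains were separate by a narrow margin, and the difference was 0.63 ± 0.14 (SE), 1.54-fold, at an adjusted p of 0.010. Of the 12 germ cell markers tested, 0 were called between the strains, and their mean per array overlapped, at 1.20 to 1.70 in C57BL/6J and 1.41 to 1.80 in 129S1/SvImJ.

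The H2B probes printed above read alike. Hist1h2bk, now H2bc12, had log2 ratios of -0.13, 0.05, -0.36, -0.62 and -0.53 in C57BL/6J gonads, against -0.76, -1.04, -0.70, -0.80 and -1.36 in 129S1/SvImJ gonads. Hist1h2bm, now H2bc14, had -0.08, 0.03, -0.29, -0.53 and -0.61 in C57BL/6J gonads, against -0.71, -0.95, -0.77, -0.76 and -1.24 in 129S1/SvImJ gonads. Hist3h2bb, annotated now as H2bu1-ps, had -0.67, -0.47, -0.86, -1.01 and -1.10 in C57BL/6J gonads, against -1.19, -1.51, -1.21, -1.33 and -1.71 in 129S1/SvImJ gonads. The F1 means were -0.72 ± 0.23 and -0.79 ± 0.12 for Hist1h2bk, -0.73 ± 0.23 and -0.76 ± 0.12 for Hist1h2bm, and -1.24 ± 0.16 and -1.25 ± 0.10 for Hist3h2bb, in (B6x129S1)F1 and (129S1xB6)F1 in turn (SD, n = 5 each). In each of these genes the lowest C57BL/6J array was just above the highest 129S1/SvImJ array. Their differences were 0.61 ± 0.14, 0.59 ± 0.14 and 0.57 ± 0.12 (SE), with adjusted p of 0.013, 0.012 and 0.0073. Since the probes share bases, these 3 calls are not 3 separate measurements.

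The remaining H2B gene tested was Hist3h2ba, now H2bu2, with a difference of 0.24 ± 0.34 (SE) and an adjusted p of 0.86. It had the lowest level over the pool of all members, at a mean log2 ratio of -2.79 over the 20 arrays. As the mean of all 7 H2B genes per array, the log2 ratio was -0.67 to -0.26 in C57BL/6J and -1.30 to -0.94 in 129S1/SvImJ, with the F1 arrays between -0.93 and -0.74. The same pool was on every array. In whole gonads, fewer cells of a type and less RNA per cell cannot be told apart.

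**Figure D2:**
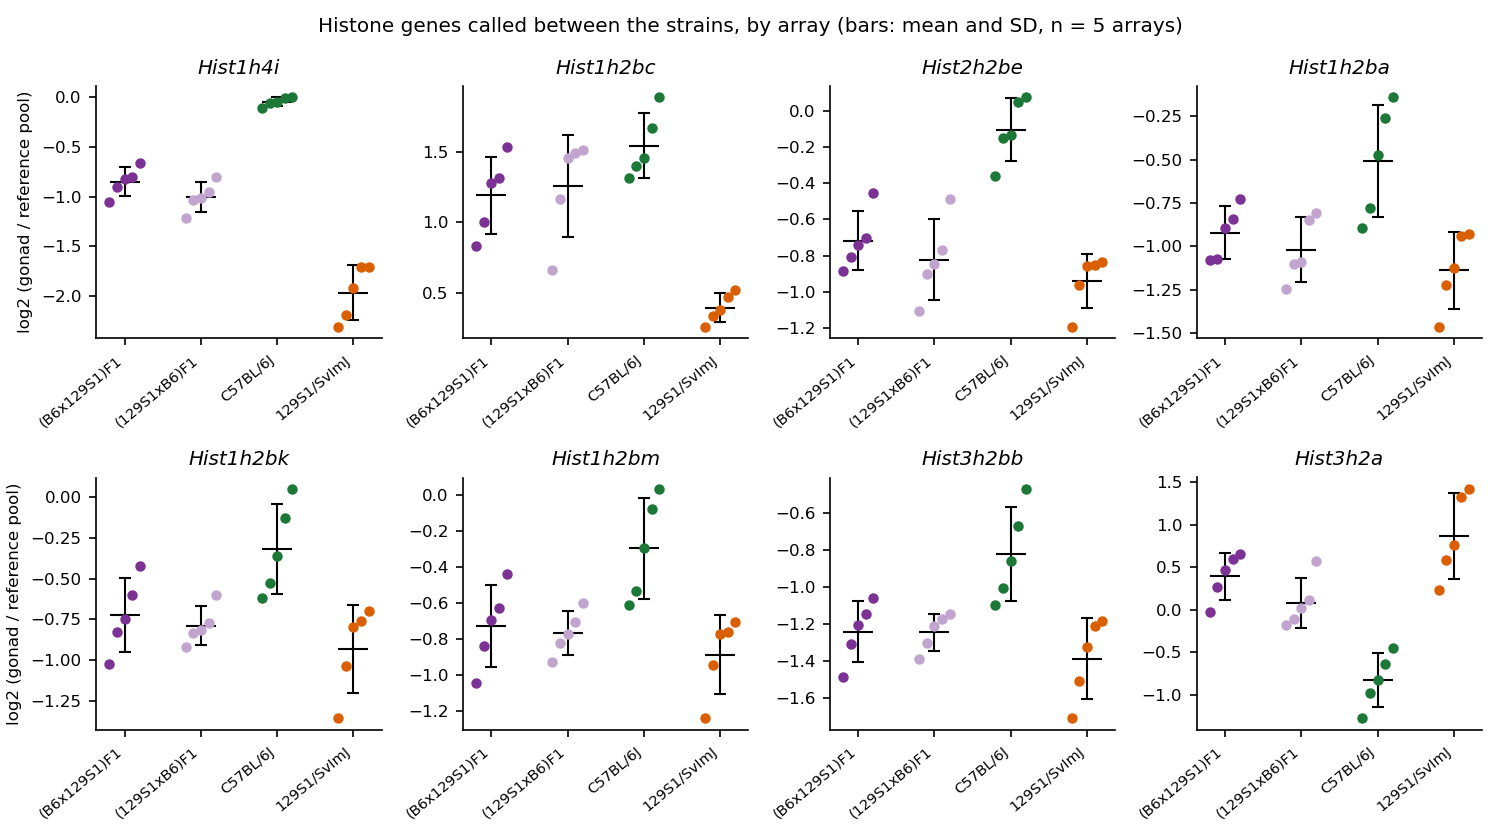
Log2 ratio of gonad over reference pool (y axis) of the 8 histone genes called between the strains, by genotype (x axis), with a point per array and bars for the mean and SD of 5 arrays. The C57BL/6J points lie above all 129S1/SvImJ points in 7 genes and below them in Hist3h2a, and the F1 means lie between the strain means in all 8.

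Among clustered genes whose brightest probe shared a run with another member, 3 of 10 were called, and among the others 5 of 22 were called. Over all genes tested, 5.56% were called. The 3 are Hist1h2bk, Hist1h2bm and Hist3h2bb, whose probes share bases with each other, so the counts do not compare separate measurements. When only the 10 strain arrays were fitted, 4 of the 45 genes remained called, against 3.89% of all genes in that fit, namely Hist1h4i, Hist1h2bc, Hist2h2be and Hist3h2a, and the other 4 had adjusted p of 0.060 to 0.070. With any 1 array left out, 8 histone genes were called each time, while 4.39% to 5.62% of all genes were called. Arrays on the same slide gave the sign of the whole fit for all 8 genes on each of the 4 slides that held both strains. The sizes varied: on slide 3 the differences of Hist1h2ba, Hist1h2bk, Hist1h2bm and Hist3h2bb were 0.15, 0.17, 0.16 and 0.11, and on slide 2 they were 1.08, 1.09, 0.98 and 1.04.

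No H1 or H3 gene was called between the strains in limma, although 2 H1 genes and 1 H3 gene had an unadjusted p under 0.05. Such a p was found for 3564 of all 24058 genes tested. The medians of the strain difference were -0.40 for the 6 H1 genes, -0.26 for the 10 H2A genes, 0.61 for the 7 H2B genes, 0.19 for the 3 H3 genes and -0.14 for the 6 H4 genes, beside 0.01 over all genes tested. Over the 32 clustered genes the median was -0.11, with 14 above 0 and 18 below. Over the 13 variant histones it was 0.08, with 8 above 0 and 5 below. The clustered class had genes called in both directions, and its differences ran from -1.69 to 1.92, while those of the variant class ran from -0.38 to 0.26. The brightest probe of the H1 gene Hist1h1d differed by -0.15. A dimmer probe of Hist1h1d differed by 0.30, with no overlap of the strains. That probe was named after its values were seen and was not tested on its own.

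The linker histone genes Hist1h1e and Hist1h1b had the largest strain differences among clustered genes that were not called. Hist1h1e was 0.23, -0.29, 0.12, 0.99 and -3.25 in C57BL/6J gonads, against 1.30, 0.92, 1.08, 0.09 and -0.70 in 129S1/SvImJ gonads. Hist1h1b was -0.41, -0.22, -0.28, -0.49 and -2.18 in C57BL/6J gonads, against 0.37, 0.64, -0.30, 0.31 and 0.01 in 129S1/SvImJ gonads. In both genes 1 C57BL/6J array, that of sample K2, was far below the others. The differences were -0.98 ± 0.56 for Hist1h1e and -0.92 ± 0.34 for Hist1h1b (SE), with adjusted p of 0.47 and 0.15. Without K2 they were -0.28 for Hist1h1e and -0.55 for Hist1h1b. The F1 means of Hist1h1e were 0.30 ± 0.44 in (B6x129S1)F1 and 0.20 ± 0.44 in (129S1xB6)F1, and those of Hist1h1b were -0.29 ± 0.62 and -0.21 ± 0.36 in the same groups (SD, n = 5 each).

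The brightest clustered probes belonged to Hist1h2aa, Hist1h2af and Hist2h2ac, which encode H2A, and to Hist2h3c1 and Hist1h3d, which encode H3. Hist1h2aa is a germ line member of its cluster, and its probe shares a run of 44 bases with that of Hist1h2af. The signal of that probe therefore cannot be assigned to Hist1h2aa. Hist1h2aa averaged -0.79 ± 0.33 in (B6x129S1)F1, -0.96 ± 0.28 in (129S1xB6)F1, -1.08 ± 0.43 in C57BL/6J and -0.68 ± 0.45 in 129S1/SvImJ (SD, n = 5 each, here and below). Hist1h2af averaged -0.78 ± 0.39, -1.02 ± 0.35, -1.06 ± 0.38 and -0.70 ± 0.47 in the same order of groups, and Hist2h2ac -0.79 ± 0.24, -0.98 ± 0.23, -1.0 ± 0.35 and -0.71 ± 0.46. Hist2h3c1 averaged 0.05 ± 0.14, 0.04 ± 0.13, 0.11 ± 0.26 and -0.09 ± 0.20, and Hist1h3d -0.03 ± 0.15, -0.04 ± 0.07, 0.07 ± 0.27 and -0.08 ± 0.17. The H2A probes read below the pool in every group and the H3 probes near it. None of the 5 was called between the strains, and their adjusted p ran from 0.45 to 0.70.

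The variant histones showed small strain differences. Those of the H2A type were led by H2afj, which encodes H2A.J, with means of -0.67 ± 0.28 in (B6x129S1)F1, -0.84 ± 0.23 in (129S1xB6)F1, -0.94 ± 0.33 in C57BL/6J and -0.55 ± 0.43 in 129S1/SvImJ. Its strain difference of -0.38 ± 0.19 (SE) had an adjusted p of 0.38. The brightest H2afj probe is the one that shares 29 bases with Hist1h2aa and Hist1h2af. A second H2afj probe, with a mean Cy5 signal of 719 against 257425 for the brightest, gave another picture. It read 0.04, -0.51, -0.87, -0.70 and -0.53 in (B6x129S1)F1 gonads and -0.31, -0.56, -0.48, -0.51 and -0.49 in (129S1xB6)F1 gonads. It read 0.61, 0.03, 0.55, -0.02 and 0.64 in C57BL/6J gonads, against -0.91, -1.37, -1.41, -0.62 and -0.86 in 129S1/SvImJ gonads. The strains did not overlap on it, and the means differed by 1.40 with C57BL/6J higher, the opposite sign to the brightest probe. This second probe was named after its values were seen and was not tested on its own; with the mean of both probes the difference of H2afj was 0.51 at an adjusted p of 0.053.

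H2afz and H2afv encode the forms of H2A.Z, which is placed at promoters and regulatory elements. H2afz averaged -1.14 ± 0.27 in (B6x129S1)F1, -1.24 ± 0.15 in (129S1xB6)F1, -1.05 ± 0.18 in C57BL/6J and -1.30 ± 0.17 in 129S1/SvImJ. H2afv averaged 0.36 ± 0.22, 0.31 ± 0.21, 0.31 ± 0.17 and 0.11 ± 0.22 in the same order. The forms stood on opposite sides of the pool in every group, and their strain differences of 0.25 and 0.21 had adjusted p of 0.37 and 0.53. H2afx, whose protein is phosphorylated at DNA breaks, averaged -0.43 ± 0.20, -0.32 ± 0.22, -0.56 ± 0.43 and -0.52 ± 0.27, a strain difference of -0.04.

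The macroH2A genes were below the pool in every group. H2afy averaged -0.48 ± 0.09 in (B6x129S1)F1, -0.54 ± 0.18 in (129S1xB6)F1, -0.49 ± 0.15 in C57BL/6J and -0.42 ± 0.11 in 129S1/SvImJ. H2afy2 averaged -1.14 ± 0.62, -0.91 ± 0.24, -0.94 ± 0.43 and -1.17 ± 0.86 in the same order, and H2afy3, annotated now as Macroh2a3, -1.22 ± 0.31, -1.10 ± 0.24, -1.05 ± 0.27 and -1.32 ± 0.31. Their strain differences were -0.07, 0.23 and 0.26, with adjusted p from 0.56 to 0.88. A dimmer H2afy probe read 1.68 over the pool in place of -0.48, so the level of this gene over the pool depended on the probe.

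H3f3a and H3f3b both encode H3.3. H3f3a averaged -0.10 ± 0.21 in (B6x129S1)F1, -0.13 ± 0.22 in (129S1xB6)F1, -0.16 ± 0.22 in C57BL/6J and -0.25 ± 0.37 in 129S1/SvImJ, and H3f3b -0.04 ± 0.25, -0.14 ± 0.42, -0.03 ± 0.43 and -0.29 ± 0.55. Both were close to the pool, with strain differences of 0.08 and 0.26. Of the H1 variants, H1f0, the linker histone of differentiated cells, averaged 0.04 ± 0.18, 0.07 ± 0.28, 0.22 ± 0.17 and 0.07 ± 0.08. Its dimmer probes read -0.48 and -0.40 over the pool, with SDs of 1.24 to 1.89 within the strains, so its level and spread depended on the probe. H1foo, known from oocytes, averaged 0.33 ± 0.08, 0.34 ± 0.10, 0.10 ± 0.16 and 0.25 ± 0.18, and H1fnt, known from spermatids, 0.07 ± 0.22, 0.05 ± 0.08, 0.13 ± 0.09 and 0.08 ± 0.13. H1fx averaged -0.18 ± 0.62, -0.47 ± 0.67, -0.69 ± 0.61 and -0.63 ± 0.52. The arrays of the strains overlapped in each of these genes, and the adjusted p of the strain difference ran from 0.55 to 0.98 for the 4 H1 variants.

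**Figure D3:**
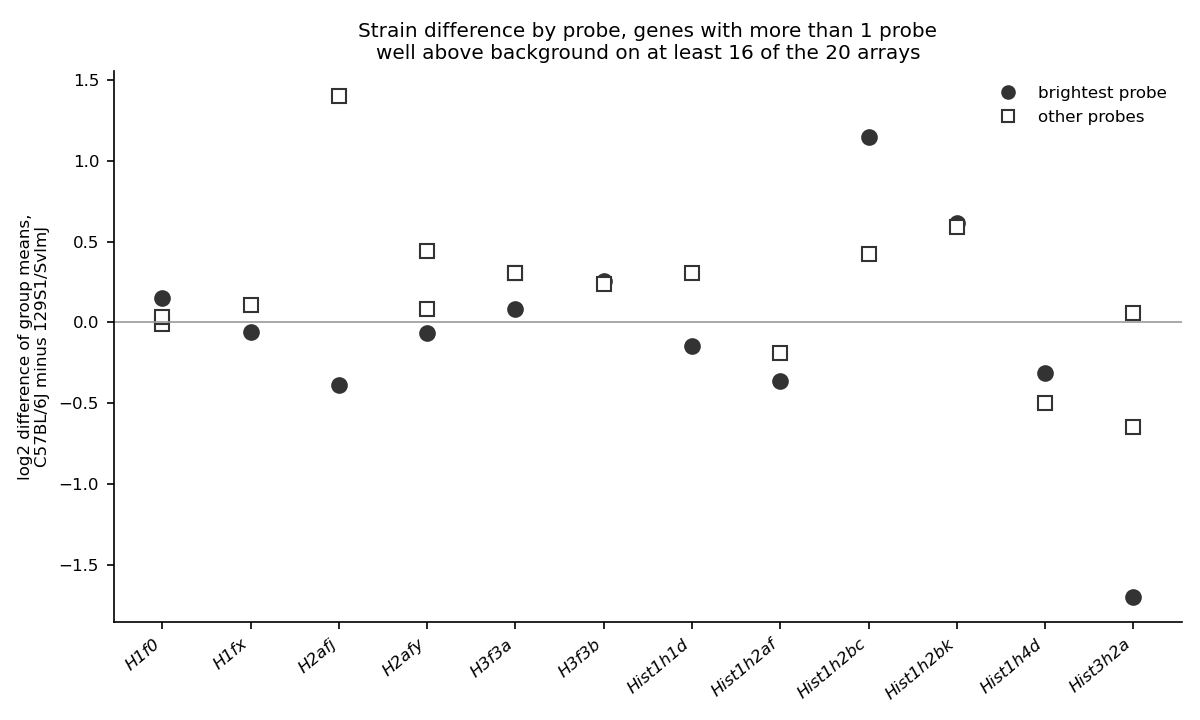
Strain difference of group means, C57BL/6J minus 129S1/SvImJ, in log2 units (y axis) for the 12 histone genes with more than 1 probe well above background on at least 16 of the 20 arrays (x axis); filled circles are the brightest probes and open squares the others. The probes of Hist1h2bk coincide, those of H2afj lie at -0.38 and 1.40, and those of Hist3h2a spread from -1.69 to 0.06.

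The histone genes called between the F1 groups and either strain were all among these 8. They share F1 arrays with each other and strain arrays with the comparison above. Against C57BL/6J, 4 of 45 members were called in the mean of the F1 groups, against 2.12% of all genes tested. Hist3h2a was higher by 1.07 ± 0.19 (1.17% of all genes were called higher), and Hist1h4i, Hist2h2be and Hist3h2bb were lower, with differences of -0.88 ± 0.10, -0.67 ± 0.10 and -0.42 ± 0.11 (SE), against 0.944% of all genes called lower. Their adjusted p were 0.0025, 1.7e-05, 0.00067 and 0.045. With the mean of all probes Hist3h2a was not called in this comparison, nor in the test over all genotypes given below. The arrays did not overlap in 3 of them, Hist3h2bb being the exception, nor in 1.37% of all genes tested. The count was 7 without the 129S1/SvImJ sample G3, 7 without the C57BL/6J sample H4 and 6 without the C57BL/6J sample K2. Over all genes, 2.45%, 2.41% and 2.32% were called in these fits in turn. The count was 3 with slide in the model, where Hist3h2bb was lost and 1.41% of all genes were called. Hist3h2bb was also lost with sample letter as a block, without the filter on dim probes and in 14 of the 20 fits with an array left out, while the other 3 genes were called in all 20.

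Against 129S1/SvImJ, 2 of 45 members were called in the mean of the F1 groups, both higher, against 1.64% of all genes called in either direction and 1.01% called higher. Hist1h4i was higher by 1.04 ± 0.10 and Hist1h2bc by 0.83 ± 0.14 (SE), with adjusted p of 1.6e-06 and 0.0017. The arrays did not overlap in either gene, nor in 1.14% of all genes tested. With slide in the model only Hist1h4i passed, against 1.01% of all genes in that fit. Without the 129S1/SvImJ sample G3 the count was 3, against 1.16%. Hist1h4i was the only member called against both strains. A moderated F test over all genotypes at once called 5 of 45 members, against 3.79% of all genes tested. They were Hist1h4i, Hist3h2a, Hist2h2be, Hist1h2bc and Hist3h2bb. Without the C57BL/6J sample H4 the F test called 8, against 3.56% of all genes. The mean of the 12 germ cell markers per array was 1.71 to 2.25 in (B6x129S1)F1 and 1.98 to 2.20 in (129S1xB6)F1, against 1.20 to 1.70 in C57BL/6J and 1.41 to 1.80 in 129S1/SvImJ. Of these markers 3 were called higher in the F1 groups than in C57BL/6J (Dppa5 by 1.16, Sox2 by 0.98 and Tcfap2c by 0.64), against 1.17% of all genes. Another 2 calls were higher than in 129S1/SvImJ (Ddx4 by 1.31 and Sox2 by 1.01), against 1.01% of all genes. Of the S phase and mesonephros lists, Mcm3 and Lhx1 were called higher in the F1 groups than in C57BL/6J, by 0.58 and 0.55, against 1.17% of all genes. In this comparison 20 of the 25 S phase genes were above 0, with a median of 0.12. So were 3 of the 6 mesonephros and duct genes, with a median of 0.04. The part of all these markers in the histone differences was not tested.

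The F1 means of all 8 genes called between the strains lay between the strain means. Toward C57BL/6J the F1 mean had covered 72.3% of the strain difference in Hist1h2bc, 54.1% in Hist1h4i and 36.9% in Hist3h2a. In the other 5, all H2B genes, it had covered 20.4% to 28.4%. Against the mean of the strains, 0 of 45 members were called in limma, 3 had an unadjusted p under 0.05, and 0.324% of all genes tested were called. An unadjusted p under 0.05 was found for 2214 of all 24058 genes tested. The positions between the strains are given as values only.

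No histone gene passed between the reciprocal crosses. In (B6x129S1)F1 minus (129S1xB6)F1, 0 of 45 members were called in limma and 0 had an unadjusted p under 0.05, beside 2 called genes, or 0.00831%, among all tested (0.00416% in each direction). Among all 24058 genes tested, 881 had an unadjusted p under 0.05. The smallest unadjusted p was 0.062, for Hist1h1t, the linker histone of spermatocytes, with a difference of 0.36 ± 0.18 (SE). Over the 32 clustered genes the median difference was 0.16, with 27 above 0, and over the 13 variant histones it was 0.04, with 8 above 0. Over all genes tested the median was 0.02. For the 6 H4 genes the median was 0.34, but on single slides it was 1.31, -0.56, -0.12 and 0.49, so the sign depended on the slide.

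By family median, arrays of the same genotype differed most in the H4 genes. The largest within-group SD of a single histone gene tested was 0.97, for the H1 gene Hist1h1e. The median within-group SD was 0.31 for the 32 clustered genes and 0.26 for the 13 variant histones, beside 0.24 for all genes tested. It was 0.40 for the 6 clustered H1 genes and 0.58 for the 6 H4 genes. Among these, Hist1h4i had the lowest SD of the 32 clustered genes, at 0.17, and the other 5, Hist1h4a, Hist1h4d, Hist1h4f, Hist2h4 and Hist4h4, had SDs of 0.56 to 0.65.

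The H4 genes moved together. Across the 20 arrays, deviations from the group mean correlated with a median Pearson r of 0.96 over the 15 pairs of H4 genes (0.50 to 0.99). The median was 0.63 over the 45 pairs of clustered H2A genes. It was 0.66 over the 36 pairs of a clustered H1 with an H4 gene, so the pattern was not particular to H4. Over all 496 pairs of clustered genes the median was 0.27, and over the 78 pairs of variant genes it was -0.01. These correlations are a description: the genes of a pair share arrays, pool and, for part of them, probe bases.

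The mean of the 6 H4 genes was -1.44, -1.03, -0.22, -0.71 and -0.05 in (B6x129S1)F1 gonads and -1.39, -0.59, -1.21, -0.86 and -0.95 in (129S1xB6)F1 gonads. It was -0.81, -0.60, -0.98, -0.30 and -1.64 in C57BL/6J gonads, against -0.82, -0.88, -0.25, -1.28 and -1.87 in 129S1/SvImJ gonads. The groups overlapped over nearly their whole range. The lowest arrays were the 129S1/SvImJ sample G3 and the C57BL/6J sample K2, which were also the lowest 2 of the 20 for the mean of all 32 clustered genes, at -1.03 and -0.98. For the mean of the variant histones they stood at -0.39 and -0.54, inside the range of the other arrays.

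The strain difference of the H4 genes changed sign with the slide. On slide 3, which held K2, the median difference of the 6 H4 genes was -1.92, and on slide 4, which held G3, it was 1.45. On slides 1 and 2 it was -0.19 and -0.06. On the same slides Hist1h4i kept differences of 1.69 to 2.26. G3 and K2 had 86.9% and 81.7% of gene spots well above background, within the range of all arrays. Without both of them, 8 members were still called between the strains, the same 8 genes, against 5.14% of all genes in that fit.

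**Figure D4:**
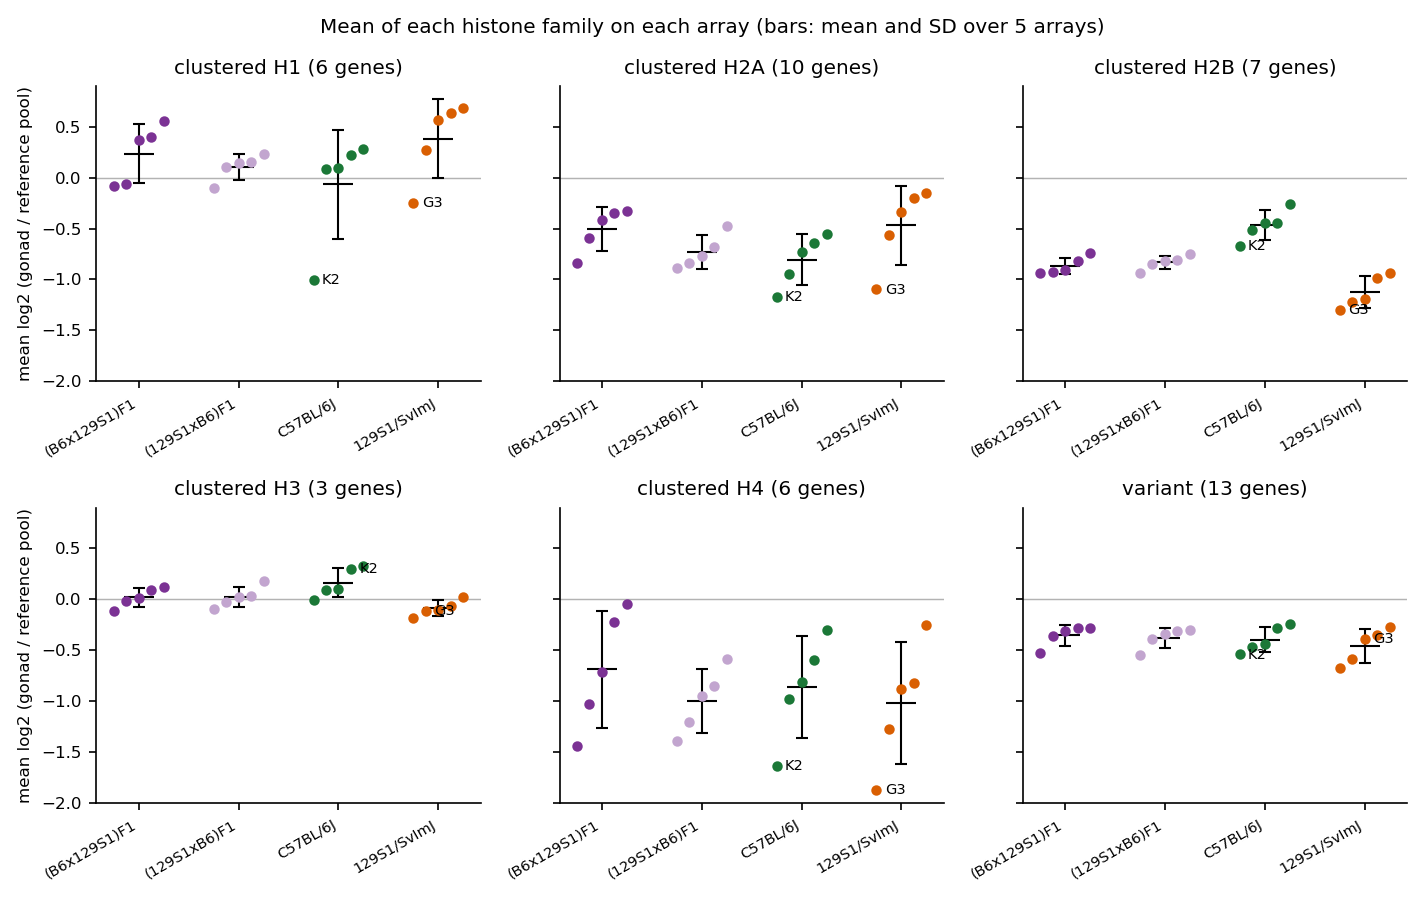
Mean log2 ratio of gonad over reference pool of each clustered histone family and of the variant histones (y axis), by genotype (x axis), with a point per array, bars for the mean and SD of 5 arrays, and the arrays of samples K2 and G3 marked. C57BL/6J and 129S1/SvImJ points do not overlap for H2B, while the H4 points of the 4 genotypes overlap widely and those of K2 and G3 are the lowest.

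Most histone genes read lower in the gonads than in the pool. The median log2 ratio over the 20 arrays was -0.69 for the 32 clustered genes and -0.46 for the 13 variant histones, beside 0.12 for all genes tested. Below -0.5 lay 19 of the 32 clustered genes (59.4%) and 4 of the 13 variant histones (30.8%), against 14.2% of all genes tested. All 6 H4 genes were below -0.5, between -1.0 and -0.70, and so were 7 of 10 H2A and 6 of 7 H2B genes. None of the 6 H1 or 3 H3 genes was. Only Hist1h2bc, at 1.10, and Hist1h1c, at 0.84, were above 0.5, and both were above the pool on all 20 arrays. The second, dimmer probe of Hist1h2bc read 0.05 over the pool, so the level of this gene depended on the probe.

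The median of the clustered genes minus that of the variant histones was -0.24. Taken per array, this difference of medians was below 0 on 16 of the 20 arrays, and averaged -0.19 ± 0.18 in (B6x129S1)F1, -0.40 ± 0.20 in (129S1xB6)F1, -0.13 ± 0.27 in C57BL/6J and -0.38 ± 0.54 in 129S1/SvImJ (SD, n = 5 each). The difference of the class means was below 0 on 14 of the 20. By genotype, the mean of the clustered genes per array was -0.43 ± 0.18 in (B6x129S1)F1, -0.58 ± 0.08 in (129S1xB6)F1, -0.51 ± 0.27 in C57BL/6J and -0.52 ± 0.31 in 129S1/SvImJ, and that of the variant histones was -0.35 ± 0.10, -0.38 ± 0.10, -0.40 ± 0.13 and -0.46 ± 0.17 in the same order (SD, n = 5 each). Levels over the pool compare a gonad with a mixture that holds whole embryos, and a dye effect on a probe cannot be told apart from them because the dyes were not swapped. The clustered mRNAs end in a stem-loop in place of a poly(A) tail, and the amplification kit is primed with oligo-dT. What part this priming had in the class difference, or in the spread of the clustered genes between arrays, was not tested.

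**Figure D5:**
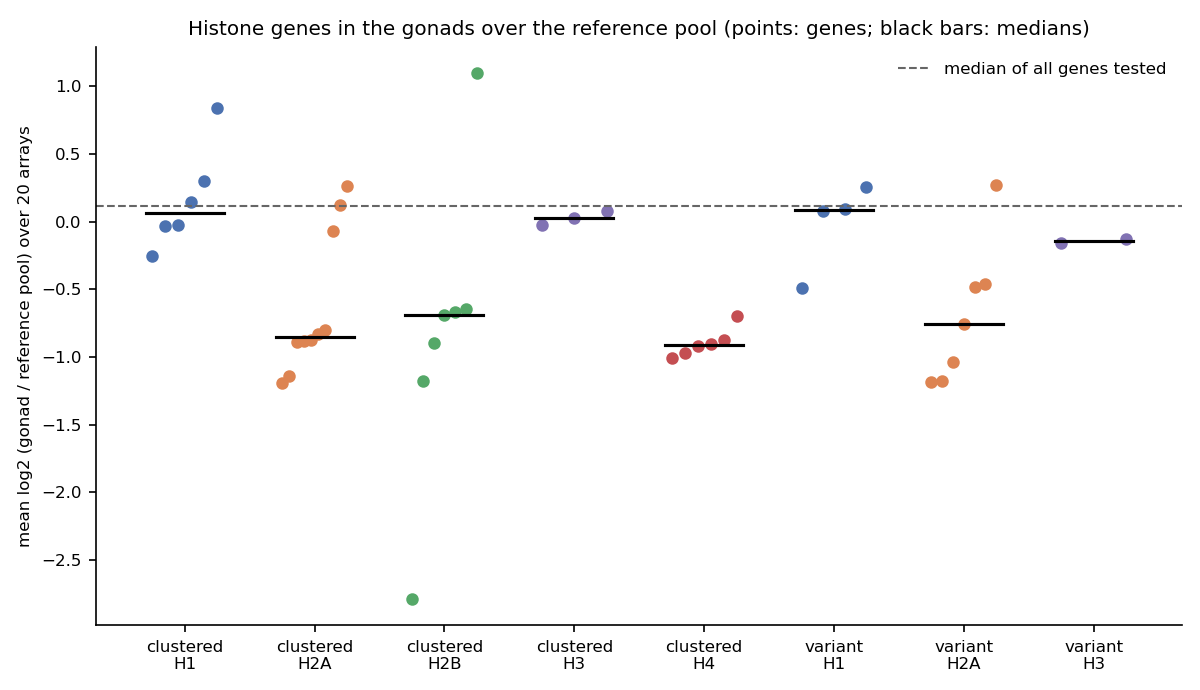
Mean log2 ratio of gonad over reference pool over the 20 arrays (y axis) for each histone gene tested, by class and family (x axis), with black bars at the medians and a dashed line at the median of all genes tested. The values are those of the brightest probes. The 6 H4 genes lie between -1.0 and -0.70, the 3 clustered H3 genes near 0, and Hist1h2bc is the highest at 1.10.

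Promoters were compared because 6 H2B genes were called the same way. RefSeq windows of assembly GRCm38.p6, from 250 bases before to 50 after the start, were given for 40 of the 47 members. The octamer ATTTGCAT, a known element of H2B promoters, was found on either strand in 4 of 5 H2B genes, 6 of 11 clustered H2A genes, 0 of 5 H4 genes and 1 of 11 variant genes (H3f3b), against 1.97% of all genes with a window. The H2B genes that held it were Hist1h2ba, Hist1h2bk, Hist1h2bm and Hist1h2be, of which the last was not tested. The called genes Hist1h2bc, Hist2h2be and Hist3h2bb were not among those with a window. CCAAT was found in 26 of 29 clustered genes (89.7%) and 7 of 11 variant genes (63.6%), against 41.1% of all genes, and TATAAA in 19 of 29 (65.5%) and 1 of 11 (9.09%), against 15.7%. Windows of 3 called H2B genes are shown, upstream of the start, with the octamer in capitals. They lie at chr13:23934273-23934340 on the minus strand (Hist1h2ba), chr13:22035771-22035820 on the plus strand (Hist1h2bk) and chr13:21721999-21722043 on the plus strand (Hist1h2bm).
Hist1h2ba: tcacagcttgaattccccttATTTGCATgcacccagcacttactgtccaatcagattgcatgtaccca
Hist1h2bk: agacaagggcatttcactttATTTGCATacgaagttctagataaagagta
Hist1h2bm: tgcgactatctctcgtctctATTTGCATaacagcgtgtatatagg

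A match is a description of these letters only. The octamer also stood in the windows of Hist3h2a, which was lower in C57BL/6J, and of Hist1h2aa and Hist1h2ab, which were not called. The 5 H4 genes with a window, Hist1h4i among them, held none.

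Of 24 genes that make and process histone mRNA, 1 was called higher and 1 lower in C57BL/6J. Over all genes tested, 3.25% were called higher and 2.31% lower. Sympk, a scaffold of the 3' end cleavage machinery, was higher in C57BL/6J by 0.96 ± 0.18 (SE; adjusted p 0.0015). Casp8ap2, a component of the histone locus body, was lower, with a difference of -0.55 ± 0.12 (SE; adjusted p 0.0074). Slbp, which binds the stem-loop, and Npat, which activates histone gene transcription, differed by -0.03 and -0.42 with adjusted p of 0.98 and 0.52. Ars2, which acts in RNA 3' end formation, and Thex1, the exonuclease of the stem-loop end, differed by -0.59 and 0.23 with adjusted p of 0.25 and 0.38.

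Of 25 genes of S phase replication, Mcm6 was called higher and Mcm3 lower in C57BL/6J, against 3.25% and 2.31% of all genes tested. Their differences were 0.48 ± 0.13 and -0.59 ± 0.17 (SE), with limma adjusted p of 0.024 and 0.044. Both encode subunits of the replicative helicase. Pcna, the sliding clamp, differed by 0.27 (adjusted p 0.30) and Mki67, a marker of proliferating cells, by 0.05 (adjusted p 0.95). Of 26 histone chaperones and exchange factors and of 15 mitosis genes, 0 were called. The medians of the strain difference were 0.07 for the processing genes, -0.09 for S phase, -0.02 for chaperones and 0.02 for mitosis, beside 0.01 over all genes tested. The S phase genes as a mean per array stood at -0.23 to -0.13 in C57BL/6J and -0.17 to -0.05 in 129S1/SvImJ, so the strains overlapped.

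Markers of cell types were compared between the strains, where 3.25% of all genes tested were called higher in C57BL/6J and 2.31% lower. Emx2, of the gonadal soma, was higher in C57BL/6J by 1.04 ± 0.24 (SE; adjusted p 0.010), and the mean of the 7 somatic markers per array was 2.68 to 3.19 in C57BL/6J and 2.16 to 2.79 in 129S1/SvImJ. Lhx1, of the mesonephros and duct list, was lower, with a difference of -0.61 ± 0.14 (SE; adjusted p 0.0088). Of the 6 genes in that list 4 were above 0 in the strain difference, with a median of 0.06. The mean of the 6 genes was -0.31 to 0.23 in C57BL/6J and -0.42 to 0.32 in 129S1/SvImJ. None of the 7 endothelial markers was called, and all 7 were below 0 in the strain difference, with means of 0.28 to 0.61 in C57BL/6J and 0.55 to 0.82 in 129S1/SvImJ. Of 10 erythroid, 7 macrophage, 12 germ cell and 5 neural markers, 0 were called, with 8, 6, 3 and 3 above 0 in the strain difference and medians of 0.18, 0.35, -0.17 and 0.0057. The mean of the erythroid markers was -0.24 to 0.80 in C57BL/6J and -0.35 to 0.52 in 129S1/SvImJ, and that of the macrophage markers was -0.09 to 0.65 in C57BL/6J and -0.30 to 0.40 in 129S1/SvImJ. The part of these cell types in the histone differences was not tested.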

How the data were processed

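The deposited files are scanner outputs of 20 arrays, with intensity values extracted by the authors with Agilent Feature Extraction 9.1.3.1, per the file headers; its processed signals are background-subtracted and dye-normalized. The deposited log2 ratios of the same arrays were used as an alternative. Dyes were not swapped. Here the log2 of processed Cy5 over Cy3 was taken, spots of a probe were averaged, and the brightest probe stood for a gene. limma 3.58.1 in R 4.3.3 fitted the 4 groups over all 20 arrays and 24058 gene names (lmFit, eBayes, 16 residual degrees of freedom), and p-values were adjusted by Benjamini-Hochberg over all of them. Of these genes, 65 had missing values on some array. The 20 arrays limit the precision. The fit was tested on simulated data.

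The members and lists were chosen with earlier results of these data known. Values are given for members called in any comparison, every variant histone tested, the 5 clustered genes with the largest strain differences and the 5 with the brightest Cy5 signal. Other genes are those called in the lists, up to 4 per list by p, and Slbp, Npat, Pcna and Mki67. Alternatives were normexp (offset 50) with loess, the deposited ratios, slide or sample letter as a block, other detection filters, the mean of all probes, median centring, only the arrays compared, and each array left out.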

Additional observations from a re-analysis of the deposited data

Results flagged for a closer look

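An array stood far from the other 4 of its genotype in 7 of the 140 sets of arrays checked, and chance flags about 1 in 20. Of these, 3 concern the C57BL/6J sample K2. Hist1h1b was -2.18 there, against -0.49 to -0.22 on the other C57BL/6J arrays. The mean of the clustered genes was -0.98, against -0.50 to -0.30, and the mean of the clustered H1 genes was -1.01, against 0.08 to 0.28.

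The others concern F1 arrays. H2afy was -0.64 in the (B6x129S1)F1 sample C3, against -0.45 to -0.40 on the other arrays of its group. H2afz was -1.50 in the (129S1xB6)F1 sample M3, against -1.21 to -1.13. In the (129S1xB6)F1 sample L1, H3f3b was -0.87, against -0.13 to 0.13, and Hist2h2ac was -0.57, against -1.14 to -1.01.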

How the results depend on the processing

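Between the strains 8 histone genes were called under every alternative except the fit of only the arrays compared, which called 4; the residual degrees of freedom are fewer there. The F1 groups against 129S1/SvImJ gave 1 call with slide in the model, and 2 to 3 with an array left out. The F1 groups against C57BL/6J gave 3 to 7 calls with an array left out, and the test over all genotypes 4 to 8. Over all genes, the fits with sample letter or slide as a block moved some counts: for F1 against C57BL/6J 298 with the letter, against 509; for F1 against 129S1/SvImJ 243 with slide and 263 with the letter, against 394; for F1 against the strain mean 29 with slide and 36 with the letter, against 78; and over all genotypes 544 with the letter, against 912. Slide as a block raised the calls between the strains to 1548, against 1337, and those over all genotypes to 963. Without the 129S1/SvImJ sample A3, F1 against 129S1/SvImJ gave 251. With an array left out, F1 against the strain mean gave 43 to 112. The reciprocal crosses gave 0 calls under normexp with loess, against 2. The set without both G3 and K2, chosen after seeing the data, gave 8 calls between the strains.

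With the mean of all probes, the strain difference changed sign in 4 uncalled variant genes: H1fx was 0.025, H2afj 0.51, H2afy 0.15 and H2afz -0.21. With arrays left out, H1fx ran from -0.21 to 0.19, H1fnt from -0.013 to 0.084, H2afx from -0.16 to 0.12 and H3f3a from -0.047 to 0.18. Hist3h2a was -0.76 with the mean of its probes. The median of the clustered genes ran from -0.32 to 0.06 with arrays left out, so its sign is not settled. Apart from the probe choice, the cause was not tested. No paired analysis was possible because the replicate names, which would have to give the pairs, are sample letters that the groups do not share; slides held several genotypes, and slide was fitted as a block as given above.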
